A study of Mus musculus with 4 samples.

Results

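The 10 genes described here encode transcription factors and inhibitors known for their part in innate lymphoid cell precursors: Id2, Id3, Tox, Tox2, Nfil3, Zbtb16, Tcf7, Lef1, Bach2 and Zbtb7b. They were taken by symbol, all 10 were found among the 30731 genes counted in every library, and all 10 passed the filter on low counts. Innate lymphoid cells, natural killer (NK) cells among them, develop without a rearranged antigen receptor from lymphoid progenitors shared with T and B cells. Id proteins bind E proteins, the basic helix-loop-helix activators of T and B cell genes, and keep them off DNA, while Nfil3, Tox and TCF-1 (encoded by Tcf7) are required in mice for normal numbers of early innate lymphoid precursors. Zbtb16 encodes PLZF, which marks the precursor of helper-like innate lymphoid cells, and much of this set is also used by T cells.

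RNA was sequenced from 3 kinds of mouse cell that were also used for Hi-C, a method that maps contacts within the genome. MNK-3 is an ILC3-like cell line that came from thymocytes of NIH-Swiss mice at fetal day 15 and was kept in IL-7 and IL-15 at 10 ng/ml, with 2 libraries labelled wild type. ILC2, the group 2 innate lymphoid cells, came from bone marrow of pooled wild type C57BL/6 mice of 8 to 12 weeks and were grown out with IL-33, IL-25, IL-7 and IL-2, each at 10 ng/ml, with 1 library. NK cells, standing for group 1, came from the spleen of pooled wild type C57BL/6 mice of 8 to 12 weeks, with 1 library and no culture stated. Each cell type came from its own tissue and culture, and MNK-3 is also of another strain and a line, so these cannot be told apart in any comparison. Nothing in the labels says that the MNK-3 libraries came from separate cultures, so the p-values rest on a spread between libraries that may be technical only. In such bulk samples, fewer cells that express a gene and less RNA per cell cannot be told apart.

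Levels are in CPM, each gene's reads scaled to a common total over the shared genes. Those totals were 25617762 in MNK-3 replicate 1, 15177345 in MNK-3 replicate 2, 9298162 in ILC2 and 4637812 in NK. MNK-3 replicate 1 stood apart. It had 75.8% of its reads assigned to no gene feature, against 24.3% in MNK-3 replicate 2, 23.1% in ILC2 and 47.1% in NK. Whether such reads lay inside or outside genes was not tested. It held a count for 95.6% of shared genes, against 69.6% to 76.0% elsewhere. Its 1092 olfactory receptor genes, silent in lymphocytes, had a median of 0.576 CPM per kb, against at most 0.0442 in the other libraries. Scaled by exonic length, that median came to 27.7% of the Bach2 level in replicate 1, 11.7% of Id3 and of Tox2, 9.02% of Zbtb16 and at most 5.22% of the other members. Id3 and Bach2 were also the members whose MNK-3 libraries lay far apart. Cell labels were checked by their defining markers. Of 10 ILC3 markers 7 were at least 4-fold higher in MNK-3 than in ILC2, and 7 than in NK. Of 7 ILC2 markers, 6 were at least 4-fold lower in MNK-3 than in ILC2. In ILC2 against NK, 5 were at least 4-fold higher, with 1334 CPM of Il5 in ILC2, and 1, Klrg1, was lower, at 20.8 CPM in ILC2 and 89.7 CPM in NK. Il17rb had 25.8 and 2.50 CPM in MNK-3, 3.98 in ILC2 and 3.88 in NK. NK held 1114 CPM of Ncr1, and all 8 NK markers were at least 4-fold lower in both MNK-3 and ILC2 than in NK.

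The upstream sequences of Id2, Tcf7 and Lef1 are shown because these genes carry the opposite patterns described next: Id2 was lowest in MNK-3 and highest in ILC2, while Tcf7 and Lef1 were lowest in ILC2. RefSeq (GRCm38.p6) gave windows for 8 of the 10 genes, and Tox and Zbtb16 had none. Each line gives the 250 bases before the first RefSeq gene start, in the direction of transcription, for Id2 (minus strand, chr12:25096093-25096342), Tcf7 (minus strand, chr11:52283015-52283264) and Lef1 (plus strand, chr3:131110047-131110296). Capitals mark the E-box letters CANNTG, the core bound by E proteins, which read the same on both strands.
Id2: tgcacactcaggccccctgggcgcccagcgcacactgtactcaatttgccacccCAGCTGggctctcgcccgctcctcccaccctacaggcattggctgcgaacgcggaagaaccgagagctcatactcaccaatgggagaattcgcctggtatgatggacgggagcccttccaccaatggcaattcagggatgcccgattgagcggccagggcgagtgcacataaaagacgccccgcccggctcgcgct
Tcf7: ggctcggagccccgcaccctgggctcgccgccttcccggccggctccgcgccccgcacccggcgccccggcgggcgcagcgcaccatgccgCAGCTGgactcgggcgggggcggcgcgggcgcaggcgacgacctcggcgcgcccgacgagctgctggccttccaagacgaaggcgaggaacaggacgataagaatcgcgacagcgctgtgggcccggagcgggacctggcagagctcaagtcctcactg
Lef1: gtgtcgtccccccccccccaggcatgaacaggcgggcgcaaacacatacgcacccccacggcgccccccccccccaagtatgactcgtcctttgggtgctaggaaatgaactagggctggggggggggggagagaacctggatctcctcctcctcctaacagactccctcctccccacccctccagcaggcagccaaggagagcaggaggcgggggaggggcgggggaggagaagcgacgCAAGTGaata
Each window held 1 E-box, starting 196 bases before the start in Id2, 159 in Tcf7 and 10 in Lef1. In the Tcf7 window an ATG 165 bases before its start opens a frame of 55 codons with no stop up to the start. The Tcf7 E-box lies inside this frame. In the Id2 window an ATG 73 bases before its start opens 24 such codons, with no E-box after that ATG. Whether either window holds coding sequence was not tested, so neither is read as promoter sequence only. The E-box letters stood in 66.2% of all 32851 RefSeq windows of this length, so their presence does not set the genes apart. The TCF core CTTTGA, searched on both strands, was in none of these 3 windows and in 13.8% of all. RefSeq gives 4 windows for Lef1, of which the fourth holds 2 such cores, and 2 for Tcf7, of which neither holds one. The window of Id2 was 62.8% G and C, that of Tcf7 76.0% and that of Lef1 66.4%, against a median of 52.4%. The RefSeq start of Id2 lay 1048 bases inside the GENCODE gene and that of Tcf7 at the GENCODE start, so a window need not hold the start used in these cells.

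**Figure D1:**
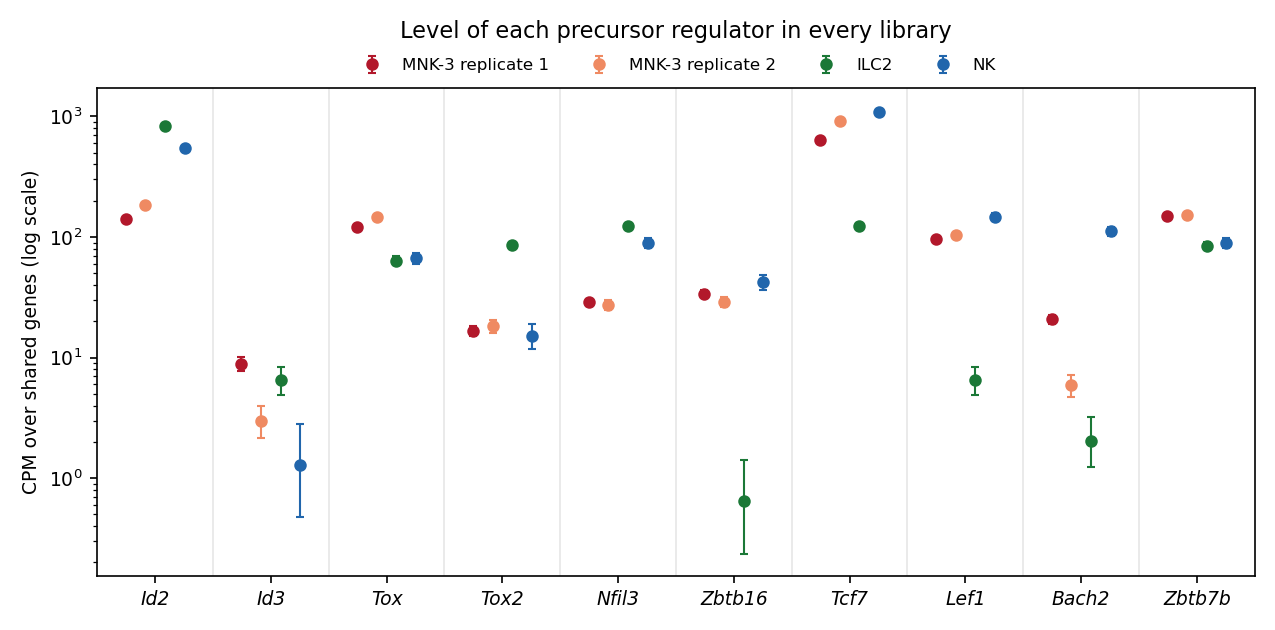
CPM of each of the 10 genes on a log axis, with MNK-3 replicates 1 and 2, ILC2 and NK from left to right within a gene and exact 95% Poisson intervals as bars, which cover counting error only. Id2, Tox2 and Nfil3 were highest in ILC2, whereas Zbtb16, Tcf7, Lef1 and Bach2 were lowest there, with 0.645 CPM of Zbtb16 in ILC2 against 42.0 in NK.

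The members set MNK-3 apart from ILC2 in both directions. MNK-3 had less Id2, Tox2 and Nfil3 than ILC2, and more Tcf7, Lef1, Zbtb16 and Bach2. Of the 10 members, 7 were at least 4-fold apart with 10 CPM or more in the higher group. In MNK-3 4 were higher and 3 lower, beside 8.05% of all 25283 genes tested. That share is 2035 genes, all among the 13151 at 10 CPM or more in some library, as were all members but Id3. By limma voom with Benjamini-Hochberg adjustment over all genes tested, 4 members passed an adjusted p of 0.05, with Tcf7 higher and Id2, Tox2 and Nfil3 lower, beside 3.27% of all genes. Of the 13151 genes at 10 CPM or more in some library, 6.3% passed.

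Against NK, MNK-3 had less Id2 and Bach2, and these 2 members passed the same test, beside 2.33% of all genes and 4.49% of those at 10 CPM or more. Bach2 alone was at least 4-fold apart, beside 9.35% of all genes, or 2364 of the 13151 at 10 CPM or more. ILC2 against NK is 1 library against 1. There the test borrows its spread from the MNK-3 pair, and 1 member, Tcf7, passed it as lower in ILC2, beside 1.3% of all genes. By size 5 members were at least 4-fold apart, Tox2 higher in ILC2 and Zbtb16, Tcf7, Lef1 and Bach2 lower. Beside them stood 6.51% of all genes, or 1647 of the 13151 at 10 CPM or more. The 3 comparisons share libraries and are not independent of each other.

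The median log2 ratio of CPM + 0.5 over the members was -0.45 for MNK-3 over NK, 0.96 for MNK-3 over ILC2 and -0.07 for ILC2 over NK. Over all genes tested it was 0.88, 1.12 and -0.26 for those comparisons, and -0.26 and 0 for the first 2 without MNK-3 replicate 1. The members' medians without that library were -0.37 and 1.03. Calls depended on how libraries were scaled. With TMM factors the members called numbered 1, 0 and 0 in the order MNK-3 over NK, MNK-3 over ILC2 and ILC2 over NK. The signs of all 14 ratios that were called or at least 4-fold stayed the same in every setting tried. Those ratios were picked for size or call in these same data, so their signs could hardly turn. Calls over all genes were 73 higher and 517 lower in MNK-3 than in NK, against 2 and 122 with TMM, and 228 higher and 600 lower in MNK-3 than in ILC2, against 0 and 75.

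**Figure D2:**
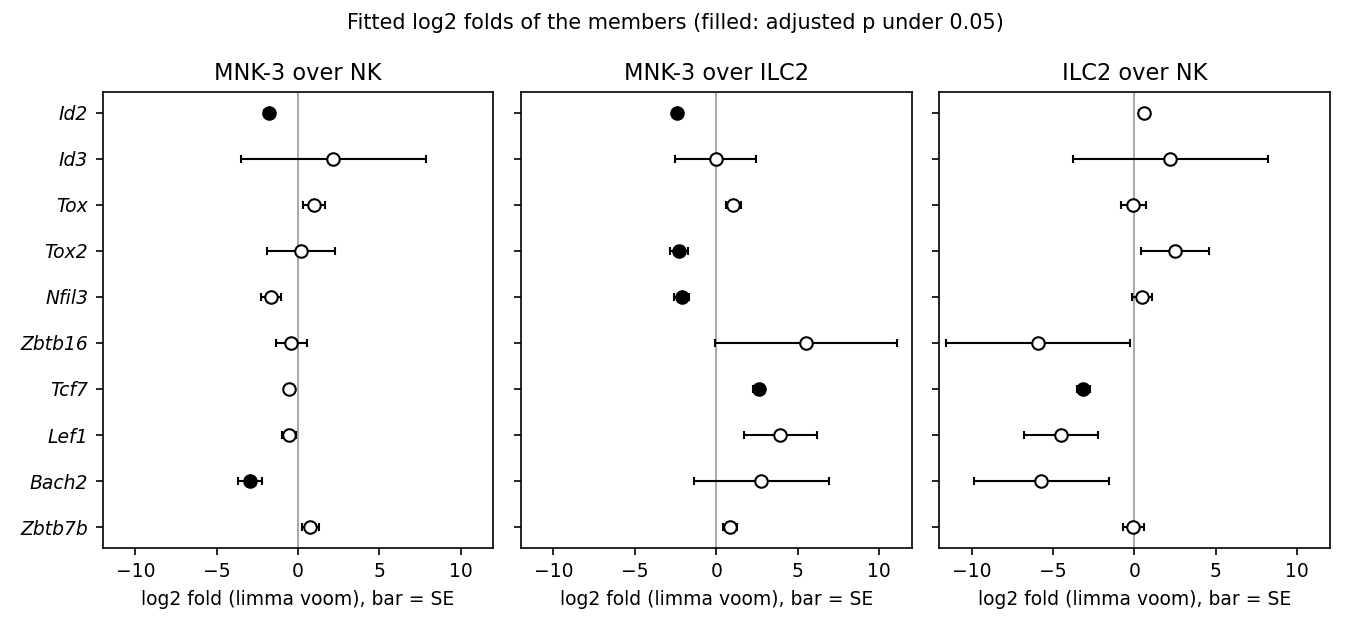
Fitted log2 folds of the 10 genes (limma voom) with standard errors as bars, for MNK-3 over NK, MNK-3 over ILC2 and ILC2 over NK, filled where the adjusted p was under 0.05. Id2 lay at -1.80 and -2.39 in the MNK-3 comparisons with short bars, while the large folds of Zbtb16 and Lef1 against ILC2 had bars too long to pass.

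Id2 was the more abundant of the Id genes in every library. Id2 (ENSMUSG00000020644, mm10 chromosome 12, 25093799 to 25097140) encodes the E protein inhibitor that innate lymphoid and NK cells depend on. It had 142 and 185 CPM in the MNK-3 libraries, 828 CPM in ILC2 and 550 CPM in NK. The order was ILC2, NK, MNK-3, and both MNK-3 libraries lay below both other libraries. MNK-3 averaged 163 ± 30.3 CPM (SD, n = 2). Id2 fell in MNK-3 relative to ILC2, with a fitted log2 fold of -2.39 (SE 0.24, adjusted p 6.26e-20 by limma voom). Relative to NK the fitted log2 fold was -1.80 (SE 0.29, adjusted p 1.56e-07 by limma voom), also a fall. The first call was made in 4 and the second in 3 of 6 other settings. ILC2 over NK was 1.51-fold (95% counting interval 1.44 to 1.57) without passing (adjusted p 0.999 by limma voom).

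Id3, the related inhibitor that acts mainly in T and B cells, was scarce. It had 8.82 and 2.96 CPM in MNK-3, 6.45 CPM in ILC2 and 1.29 CPM in NK, from 226, 45, 60 and 6 reads. The MNK-3 libraries lay on either side of ILC2, so those groups overlapped, and no comparison passed (limma voom, adjusted p 0.999 or above). Of the Id2 and Id3 level per kb of principal transcript, Id2 made 91.2% and 97.6% in MNK-3, 98.8% in ILC2 and 99.6% in NK. Id3 lies on chromosome 4 at 136143497 to 136145755.

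The E proteins that Id proteins bind varied less than Id2. Tcf3, which encodes E2A, had 206 and 249 CPM in MNK-3, 139 in ILC2 and 160 in NK, and Tcf12, which encodes HEB, had 232 and 195 CPM in MNK-3, 101 in ILC2 and 218 in NK. Tcf4, which encodes E2-2, had 57.0 and 57.8 CPM in MNK-3, 46.4 in ILC2 and 87.1 in NK. Of the 7 genes on the list of E proteins and other Id proteins, none was called and none was at least 4-fold apart with 10 CPM in any comparison. Summed per kb of principal transcript, Id2 and Id3 came to 0.697 and 0.786 times the sum of Tcf3, Tcf4 and Tcf12 in MNK-3, against 6.22 times in ILC2 and 2.83 times in NK. By these lengths the Id sum was below the E protein sum in both MNK-3 libraries and above it in both primary cells. No other lengths were tried for these sums, so only the order of the cells is read from them, not the side of 1 in MNK-3. The list also held Id1, with 5.74 CPM and no counts in MNK-3, 1.08 in ILC2 and 0.647 in NK. Id4 stayed at or below 1.94 CPM in every library.

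Tox and Tox2 encode related HMG-box DNA-binding proteins, and their levels ran in different orders. Tox (chromosome 4, 6686353 to 6991557), required for NK cell and innate lymphoid precursor development in mice, had 121 and 146 CPM in MNK-3, 63.6 CPM in ILC2 and 66.4 CPM in NK. Both MNK-3 libraries lay above the others, at 2.11 times ILC2 and 2.02 times NK on average, but neither difference passed (limma voom, adjusted p 0.391 against ILC2 and 1.00 against NK). Scaled by library totals, ILC2 and NK did not differ beyond counting error, with a ratio of 0.957 (95% interval 0.833 to 1.10). That interval does not cover the choice of scaling. The log2 ratio of Tox for ILC2 over NK was -0.06 with library totals and -0.04 with factors from abundant genes. It was 0.28 with TMM and with median-of-ratios factors.

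Tox2 (chromosome 2, 163203125 to 163324170), the paralog linked to NK cell maturation, stood high in ILC2 alone. It had 16.7 and 18.2 CPM in MNK-3, 85.5 CPM in ILC2 and 15.1 CPM in NK. Relative to ILC2 it fell in MNK-3, with a fitted log2 fold of -2.31 (SE 0.55, adjusted p 0.00166 by limma voom), a call made in 2 of 6 other settings. ILC2 over NK was 5.66-fold (95% counting interval 4.43 to 7.34), which did not pass (limma voom, adjusted p 0.999). MNK-3 and NK differed by a log2 fold of 0.18 with an SE of 2.08, whose sign turned with median-of-ratios factors and in no other setting tried. Per kb, Tox stood at 3.07 and 3.41 times Tox2 in MNK-3, 0.314 times in ILC2 and 1.86 times in NK. The other family members showed no such order. Tox4 had 93.9 and 111 CPM in MNK-3, 116 in ILC2 and 102 in NK, and Tox3 had at most 4.10 CPM.

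Nfil3 (chromosome 13, 52967209 to 52981073) encodes E4BP4, a bZIP repressor required for NK cells and for the early precursor of other innate lymphoid cells. It had 28.7 and 27.3 CPM in MNK-3, 124 CPM in ILC2 and 89.5 CPM in NK. Both MNK-3 libraries lay below both primary cells. It fell in MNK-3 relative to ILC2, with a fitted log2 fold of -2.13 (SE 0.45, adjusted p 0.000168 by limma voom), a call made in 3 of 6 other settings. Against NK the log2 fold of -1.67 (SE 0.60) did not pass (limma voom, adjusted p 0.190). ILC2 over NK was 1.38-fold (95% counting interval 1.23 to 1.55), without a call.

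The PAR bZIP relatives of Nfil3, activators that bind similar DNA, and its circadian partners ran in several orders. Bhlhe40, a circadian repressor, had 206 and 274 CPM in MNK-3, 400 in ILC2 and 447 in NK, below both primary cells in MNK-3 like Nfil3, without a call (adjusted p 0.0687 against NK and 0.0788 against ILC2 by limma voom). Nr1d1, a circadian repressor of Nfil3, had 116 and 155 CPM in MNK-3, 6.13 in ILC2 and 1.51 in NK, and Dbp had 78.7 and 72.6 CPM in MNK-3, 12.4 in ILC2 and 13.2 in NK. Hlf stood at 591 CPM in ILC2, against 2.80 CPM in NK, with 21.6 and 25.8 CPM in MNK-3. Of the 9 genes on this list, 3 were at least 4-fold higher in MNK-3 than in NK (Dbp, Hlf and Nr1d1) and none lower. Against ILC2, 3 were at least 4-fold higher (Dbp, Nr1d1 and Nr1d2) and 1 lower (Hlf), and Hlf was called lower and Per1 higher. Without MNK-3 replicate 1, 1 gene was lower than in NK and 2 lower than in ILC2. Hlf alone on this list was at least 4-fold apart between ILC2 and NK. Of all genes tested, 9.35% were at least 4-fold apart for MNK-3 over NK, 8.05% for MNK-3 over ILC2 and 6.51% for ILC2 over NK. For MNK-3 over ILC2, 3.27% of all genes were called, and 6.3% of those at 10 CPM or more in some library. The time of day at which cells were taken was not stated.

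Zbtb16 (chromosome 9, 48654297 to 48836222) was near absent from ILC2 and present in the other cells. It had 33.8 and 28.7 CPM in MNK-3, 0.645 CPM in ILC2 and 42.0 CPM in NK. The ILC2 value rests on 6 reads, with an exact 95% Poisson interval of 0.237 to 1.40 CPM, far below both other groups. The level in NK was 65.2 times that in ILC2 (95% counting interval 29.4 to 179.7), and MNK-3 averaged 48.4 times ILC2. Neither passed the fit, which gave MNK-3 over ILC2 a log2 fold of 5.51 with an SE of 5.58 (limma voom, adjusted p 0.999). MNK-3 over NK was 0.743-fold, not a call (adjusted p 1.00 by limma voom).

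Tcf7 (chromosome 11, 52252371 to 52283014) was the most abundant member per kb in MNK-3 and NK. It had 639 and 919 CPM in MNK-3, 124 CPM in ILC2 and 1092 CPM in NK. ILC2 was the low library, and both MNK-3 libraries lay between it and NK. Tcf7 rose in MNK-3 relative to ILC2, with a fitted log2 fold of 2.60 (SE 0.34, adjusted p 1.02e-11 by limma voom). In ILC2 it fell relative to NK, with -3.14 (SE 0.38, adjusted p 3.48e-13 by limma voom). Each call was made in 3 of 6 other settings. In NK the level was 8.79 times that in ILC2 (95% counting interval 8.24 to 9.38). MNK-3 over NK had a log2 fold of -0.54 (SE 0.23), not a call (adjusted p 0.506 by limma voom).

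Lef1 (chromosome 3, 131110471 to 131224356), which encodes the second TCF family factor of lymphocytes, followed the same order of libraries at a lower level. It had 97.0 and 105 CPM in MNK-3, 6.45 CPM in ILC2 and 148 CPM in NK. The MNK-3 libraries lay close together, below NK and far above ILC2, which held 60 reads. NK had 22.9 times the ILC2 level (95% counting interval 17.6 to 30.3) and MNK-3 15.6 times. The fit gave MNK-3 over ILC2 a log2 fold of 3.94 (SE 2.27, adjusted p 0.865 by limma voom), without a call. Per kb, Tcf7 stood above Lef1 by 9.28 and 12.4 times in MNK-3, 27.1 times in ILC2 and 10.4 times in NK.

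Calls among the TCF partners were all in the lower direction, as were most calls over all genes in each comparison, so the direction does not set the list apart. Of the 12 genes on the list of TCF relatives, Groucho corepressors and Wnt readouts, 3 were called lower in MNK-3 than in NK (Tle3, Tle4 and Bcl9l), 1 lower than in ILC2 (Tle3) and 1 lower in ILC2 than in NK (Bcl9l). Beside these stood 2.33%, 3.27% and 1.3% of all genes called in those comparisons, or 4.49%, 6.3% and 2.49% of genes at 10 CPM or more. Tle4, a corepressor, had 37.8 and 34.3 CPM in MNK-3, 15.3 in ILC2 and 186 in NK. Tle3 had 209 and 243 CPM in MNK-3, 689 in ILC2 and 513 in NK, so the 2 corepressors had opposite orders in the primary cells. Axin2, a target of Wnt signalling, had 61.9 and 60.0 CPM in MNK-3, 16.2 in ILC2 and 33.4 in NK. Bcl9, a beta-catenin cofactor, had 38.9 and 21.3 CPM in MNK-3, 41.5 in ILC2 and 10.8 in NK. Tle2 counted as at least 4-fold higher in MNK-3 only through replicate 1, with 57.8 CPM against 1.38 in replicate 2, 2.37 in ILC2 and 3.45 in NK. The TCF relatives Tcf7l1 and Tcf7l2 had at most 12.7 and 10.5 CPM in any library.

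Bach2 (chromosome 4, 32238804 to 32586108), a repressor of effector genes in lymphocytes, was high in NK alone. It had 20.7 and 5.86 CPM in MNK-3, 2.04 CPM in ILC2 and 111 CPM in NK. Both MNK-3 libraries lay between ILC2 and NK, but they differed by a log2 ratio of 1.82 from each other, with 530 and 89 reads. The part of background reads in the replicate 1 level, beyond the olfactory receptor background given above, was not tested. Bach2 fell in MNK-3 relative to NK, with a fitted log2 fold of -2.96 (SE 0.73, adjusted p 0.00293 by limma voom), a call made in 3 of 6 other settings. The log2 ratio of CPM + 0.5 was -3.02, and it was -4.13 without replicate 1. NK held 54.4 times the ILC2 level (95% counting interval 34.5 to 91.2). MNK-3 over ILC2 was 6.50-fold on average, with a log2 fold of 2.77 (SE 4.16), without a call. Without replicate 1 the log2 ratio of CPM + 0.5 over ILC2 was 1.32, short of 4-fold, and MNK-3 no longer reached 10 CPM.

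Prdm1, which encodes Blimp-1, is repressed by Bach2 in B and T cells. It had 28.1 and 6.33 CPM in MNK-3, 77.9 CPM in ILC2 and 161 CPM in NK, so both genes were highest in NK. It was called lower in MNK-3 than in NK with a fitted -3.17 on the log2 scale (SE 0.62, adjusted p 3.53e-05 by limma voom) and lower than in ILC2 with -2.12 (SE 0.62, adjusted p 0.0247 by limma voom). Among the other 5 genes on the list of Bach2 partners, none was called. Mafg, a small Maf partner, had 98.3 and 79.8 CPM in MNK-3, 61.6 in ILC2 and 14.7 in NK. Maff, another, had 41.1 and 34.3 CPM in MNK-3, 12.8 in ILC2 and 16.8 in NK. Bach1, the close relative of Bach2, had another order, with 105 and 120 CPM in MNK-3, 26.8 in ILC2 and 72.4 in NK.

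Zbtb7b (chromosome 3, 89377644 to 89394776) encodes ThPOK, the BTB zinc finger factor that fixes the CD4 T cell lineage, and it varied least of the members. It had 150 and 153 CPM in MNK-3, 84.2 CPM in ILC2 and 88.8 CPM in NK. MNK-3 was above both primary cells, by 1.80 and 1.70 times, and neither difference passed (limma voom, adjusted p 0.561 against ILC2 and 1.00 against NK). Scaled by library totals, ILC2 and NK did not differ beyond counting error, at a ratio of 0.948 (95% interval 0.840 to 1.07). As for Tox, that interval does not cover the choice of scaling. The log2 ratio of Zbtb7b for ILC2 over NK was -0.08 with library totals and -0.05 with factors from abundant genes. It was 0.27 with TMM and with median-of-ratios factors.

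Of 15 other BTB factors, 2 were called lower in MNK-3 than in NK (Zbtb7a and Zbtb20), 1 lower than in ILC2 (Zbtb38) and 1 lower in ILC2 than in NK (Zbtb20). Beside these stood 2.33%, 3.27% and 1.3% of all genes called in those comparisons, or 4.49%, 6.3% and 2.49% of genes at 10 CPM or more. Zbtb7a, the closest relative of Zbtb7b on this list, had 134 and 151 CPM in MNK-3, 245 in ILC2 and 391 in NK. That was the reverse of the Zbtb7b order between MNK-3 and the primary cells. Zbtb46 had 71.2 and 70.2 CPM in MNK-3, 1.72 in ILC2 and 12.5 in NK, and Bcl6 had 107 and 128 CPM in MNK-3, 12.9 in ILC2 and 41.6 in NK. Like Zbtb16, both were lowest in ILC2. Zbtb20 had 86.7 and 95.3 CPM in MNK-3, 32.5 in ILC2 and 287 in NK. Zbtb32, induced in activated lymphocytes, had its highest level there instead, with 9.13 and 1.58 CPM in MNK-3, 32.6 in ILC2 and 2.37 in NK.

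**Figure D3:**
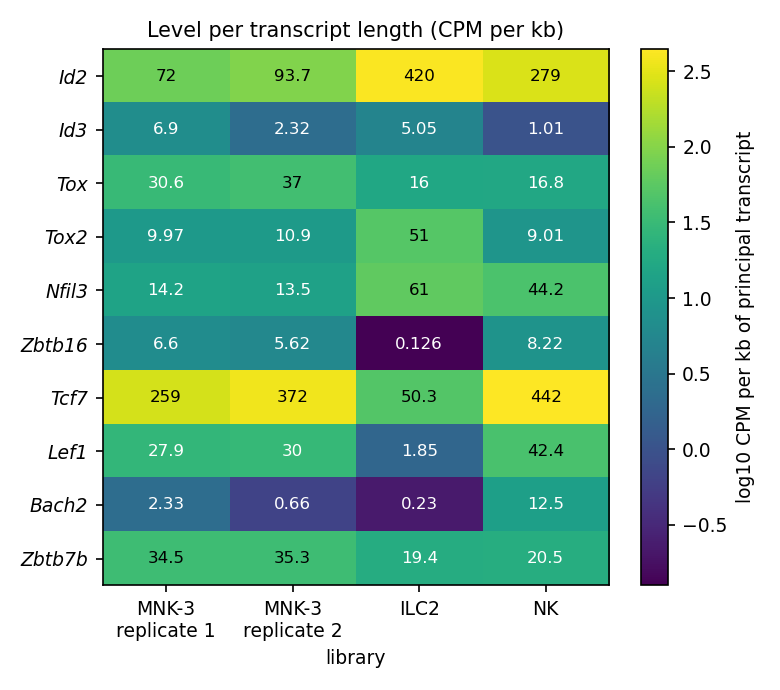
CPM per kb of principal transcript for each gene (rows) in MNK-3 replicates 1 and 2, ILC2 and NK (columns), with colour on a log10 scale and the value printed in each cell. Tcf7 is the brightest member in both MNK-3 libraries and in NK, whereas Id2 is the brightest in ILC2, at 420 CPM per kb.

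Per kb of principal transcript, Tcf7 led in MNK-3 with 259 and 372 CPM per kb and in NK with 442, and in ILC2 it came after Id2, Nfil3 and Tox2 with 50.3. Id2 was second in MNK-3 with 72.0 and 93.7 CPM per kb, first in ILC2 with 420 and second in NK with 279. Bach2 was last in both MNK-3 libraries, Zbtb16 last in ILC2 and Id3 last in NK. With exonic union length in place of the principal transcript, chosen after seeing the data, the first 2 ranks stayed as given in each library, and so did the last.

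**Figure D4:**
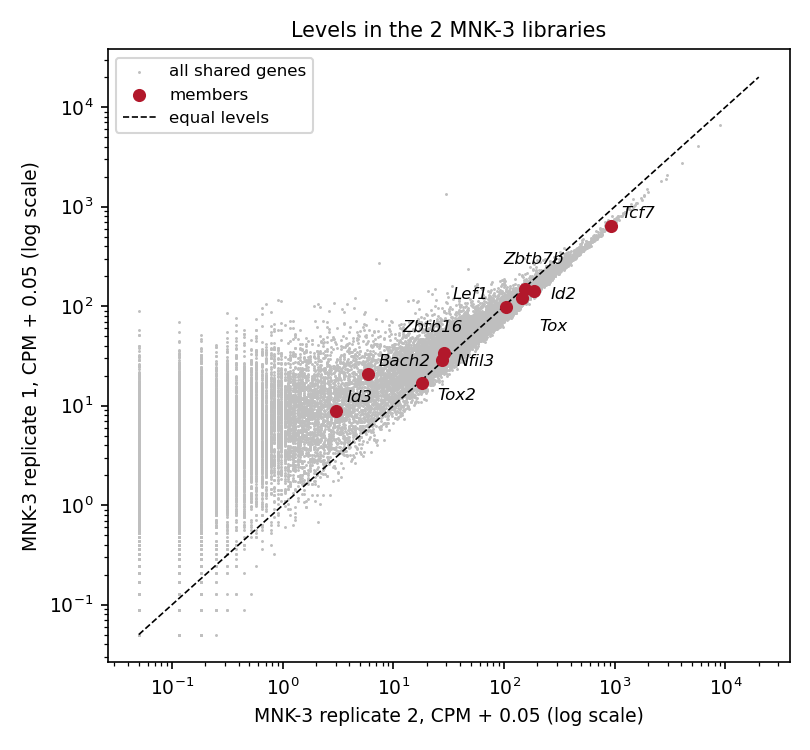
CPM + 0.05 of every shared gene in MNK-3 replicate 1 against MNK-3 replicate 2, both on log axes, with the 10 genes in red and the line of equal levels dashed. Id3 and Bach2 lie above the line, in the range where many genes were higher in replicate 1, while the other members lie near it or slightly below.

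The MNK-3 libraries gave like levels for 8 of the 10 members, with log2 ratios of replicate 1 over replicate 2 between -0.52 for Tcf7 and 0.23 for Zbtb16. The 2875 genes that reached 100 CPM in replicate 2 stood at a median of -0.30 on the same scale. Id3 at 1.57 and Bach2 at 1.82 were the exceptions. Antisense genes overlap exons of 4 members by 116 to 1208 bases, and the strand setting of the counting was not stated, so reads of the pairs cannot be told apart. The antisense partner of Lef1, Gm43352, had 16.2 and 3.62 CPM in MNK-3, 0.753 in ILC2 and 4.74 in NK. Bach2os, opposite Bach2, had 7.22 and 0.0659 CPM in MNK-3, 0.108 in ILC2 and 2.37 in NK. Each partner was below its member in every library.

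Other regulators of innate lymphoid precursors were called in both directions. Of 16 genes, 1 was called higher and 4 lower in MNK-3 than in NK, 1 higher and 4 lower than in ILC2, and 2 higher and 3 lower in ILC2 than in NK. Over all genes tested, 2.33%, 3.27% and 1.3% were called in those comparisons, or 4.49%, 6.3% and 2.49% of genes at 10 CPM or more. Rora, a nuclear receptor required for ILC2, was the gene called higher in MNK-3 than in both NK and ILC2. It had 1292 and 1841 CPM in MNK-3, 497 in ILC2 and 36.2 in NK. Ets1, Runx1, Ikzf1 and Notch1 were called lower in MNK-3 than in NK. Gata3, Ets1, Bcl11b and Notch1 were called lower in MNK-3 than in ILC2. The MNK-3 libraries lay far apart for Notch1, with 115 CPM in replicate 1 and 24.3 in replicate 2, beside 284 in ILC2 and 255 in NK. Gata3, which acts beside Tcf7 in early T cells and innate precursors, had 97.5 and 93.0 CPM in MNK-3, 1015 in ILC2 and 127 in NK, an order unlike that of Tcf7. Runx1 had 92.0 and 70.8 CPM in MNK-3, 71.4 in ILC2 and 303 in NK. Bcl11b, a T cell and ILC2 factor, had 54.5 CPM in MNK-3 replicate 1 but 2.57 in replicate 2, with 125 in ILC2 and 29.8 in NK.

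**Figure D5:**
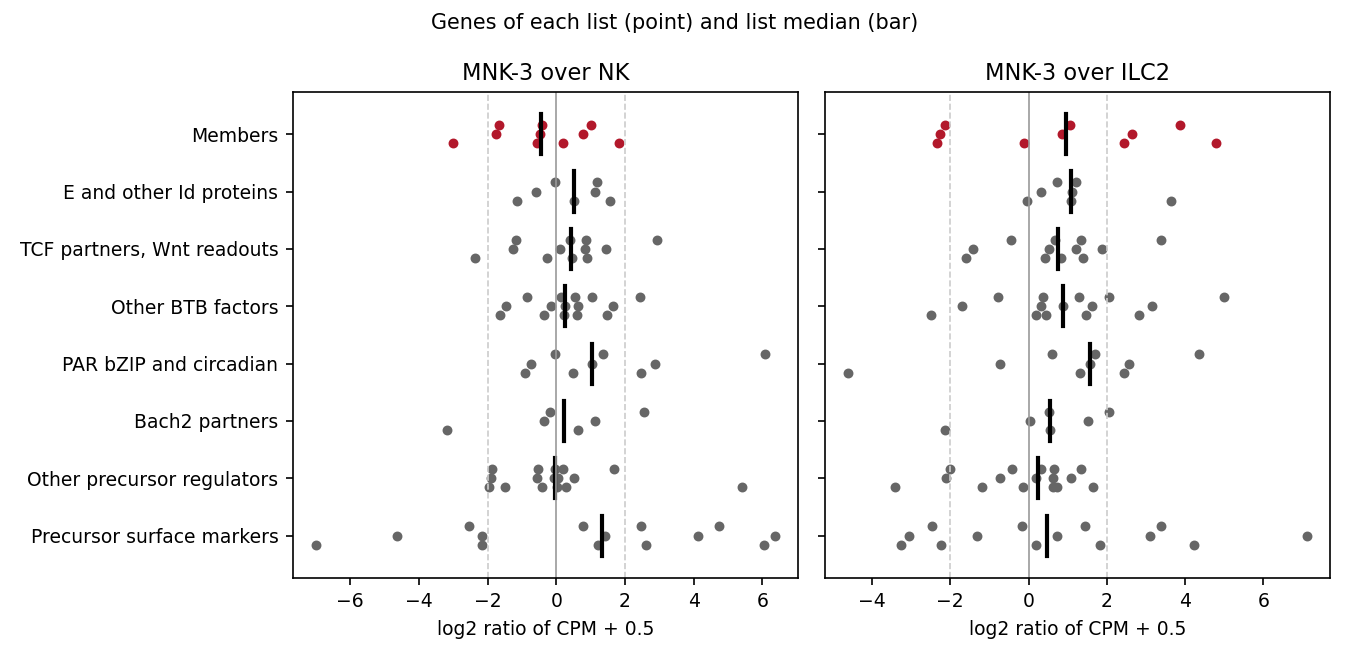
Log2 ratios of CPM + 0.5 for the genes of each list (points) with the list median (bar), for MNK-3 over NK and MNK-3 over ILC2; dashed lines mark 4-fold. The 10 members, in red, run from -3.02 (Bach2) to 1.83 (Id3) against NK, or -4.13 and 0.95 for these genes without MNK-3 replicate 1, and from -2.34 to 4.79 against ILC2.

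Surface markers of innate lymphoid precursors spread widely. Of 14 such genes, 2 were called higher and 4 lower in MNK-3 than in NK, 3 higher and 2 lower than in ILC2, and 1 higher and 3 lower in ILC2 than in NK. The shares of all genes called are those given for the other regulators. Cd7 had 59.4 and 77.5 CPM in MNK-3, no counts in ILC2 and 306 CPM in NK, an order shared with Tcf7 and Lef1. Il18r1, the IL-18 receptor chain found on early precursors, had 5.82 and 2.50 CPM in MNK-3, 25.5 in ILC2 and 594 in NK. Ly6a, which encodes Sca-1, had 96.4 and 126 CPM in MNK-3, 530 in ILC2 and 0.862 in NK. Pdcd1, a marker of helper-like precursors, had 18.2 and 19.2 CPM in MNK-3, 47.6 in ILC2 and 0.216 in NK.

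T cells use Tcf7, Lef1, Bach2, Zbtb7b and Tox, so T cell markers are set beside them. The 15 T cell markers summed to 317 and 180 CPM in MNK-3, 17.1 CPM in ILC2 and 178 CPM in NK. In MNK-3 replicate 2, 9 of the 15 were under 1 CPM, and Ptcra and Rag2 had no counts. There most of the sum came from Trbc1 at 115 CPM and Cd28 at 36.6, while Cd3e was at 0.0659. In ILC2 11 of 15 were under 1 CPM, and in NK 5, with Rag2 and Cd8b1 at no counts. NK held Cd28 at 81.9 CPM, Trbc1 at 38.6, Cd3g at 18.8 and Cd3e at 4.74. Trbc1 and its near-identical copy Trbc2 can share reads. The part of T cells in the members' levels was not tested. B cell markers (8 genes) summed to 54.0 and 2.04 CPM in MNK-3, 44.0 in ILC2 and 18.1 in NK. Myeloid markers (10 genes) summed to 44.6 and 1.98 CPM in MNK-3, 13.2 in ILC2 and 242 in NK, where Itgam, which NK cells also express, made 233 CPM.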

How the data were processed

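STAR 2.7.8a and HTSeq are named as tools and mm10/GRCm38 as the build, per the submitters' processing notes. The deposited values are whole-number read counts per gene, not normalized. Per the labels' protocols, libraries were made from total RNA with integrity numbers above 9 by a stranded total RNA kit for low input and read as pairs of 38 bases. Strand setting, gene set and pooling of technical replicates were not given in the sources used here.

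CPM was taken over the 30731 genes listed for every library. Entries that name no gene held 76.5% and 26.6% of reads in MNK-3, 25.9% in ILC2 and 49.3% in NK and were left out. Library totals set the scale. TMM and median-of-ratios factors moved abundant genes of the MNK-3 pair further apart, while factors from abundant genes, which were an alternative, moved them together. Folds came from 1 limma voom model (R 4.3.3, limma 3.58.1) of the 3 groups over all 4 libraries. It has 1 residual degree of freedom, and the spread was pooled over genes, so ILC2 and NK, with a lone library each, are taken to vary like the MNK-3 pair. Genes with at least 10 reads in some library, after scaling for its size, and 15 in all were kept, which left 25283. Tests were two-sided. The MNK-3 libraries differed by more than sampling noise (chi-square over degrees of freedom 74.4) and were kept as 2. Size counts used log2 ratios of CPM + 0.5, 4-fold with 10 CPM or more in the higher group. Positions and lengths came from GENCODE M21 and upstream sequences from RefSeq. The alternatives were other scaling factors, no filter, limma-trend, thinned libraries, a subtracted background, other pseudocounts and leaving out an MNK-3 library.

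Members and lists were chosen with earlier results of these data known. Named genes were all members, up to 4 genes per list with the largest ratios among those at 10 CPM or more, close family members and label checks. Tle3, Axin2, Bhlhe40, Zbtb38, Per1, Ets1, Ikzf1, Notch1 and the neighbouring antisense genes were named after their values were seen.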

Additional observations from a re-analysis of the deposited data

How the results depend on the processing

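Calls depended on the setting, and most signs did not. Of 30 member ratios, 26 had 1 sign in every setting. The exceptions were Tox2 for MNK-3 over NK, Id3 for MNK-3 over ILC2, and Tox and Zbtb7b for ILC2 over NK. The 14 ratios that were called or at least 4-fold all kept their sign, but they were picked for size or call, so their signs could hardly turn. In the order MNK-3 over NK, MNK-3 over ILC2 and ILC2 over NK, genes called numbered 590, 828 and 328, and members called 2, 4 and 1. With TMM factors they were 124, 75 and 0 genes and 1, 0 and 0 members, with median-of-ratios factors 96, 52 and 0 genes and 0, 0 and 0 members, and with factors from abundant genes 92, 256 and 45 genes and 0, 1 and 0 members. Without the low-count filter they were 389, 574 and 183 genes and 2, 3 and 1 members. By limma-trend they were 3058, 2247 and 2030 genes and 4, 7 and 5 members, and in libraries thinned to the smallest 1597, 1275 and 1071 genes and 3, 4 and 2 members. With an unadjusted p under 0.05 the counts of 0 genes for ILC2 over NK became 544 with TMM and 408 with median-of-ratios factors. Those counts are out of 23100 and 21687 genes tested. Both lie below the share of 0.05 that falls there with no difference at all, so they do not show hidden differences. The cause of the shifts between settings was not tested. Calls were higher in MNK-3 than in NK for 72.2% of genes called by limma-trend, against 12.4% by voom.

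Members at least 4-fold apart numbered 1, 7 and 5, and in MNK-3 over ILC2 6 with TMM or median-of-ratios factors or without MNK-3 replicate 1, and 7 without MNK-3 replicate 2. The median log2 ratio of all genes for MNK-3 over NK was 0.88 with library totals, 0.68 with TMM and 0.39 with median-of-ratios factors. For MNK-3 over ILC2 it was 1.12, 0.77 and 0.54. Without MNK-3 replicate 1, chosen after seeing the data, 13 of 30 list medians moved by more than 1.5 times. For MNK-3 over NK, 6 of 14 turned sign. The list of E proteins and other Id proteins stood at -0.71 against 0.51 with it, and surface markers at -0.15 against 1.33. Markers of T cells stood at -0.52 against 1.89, B cells -1.34 against 0.98, myeloid cells -1.07 against 0.87 and ILC2 -0.54 against 1.74. The other regulators stood at -1.12 against -0.04 with it. On the list with E proteins, Id1, Lyl1 and Tal1 had 5.74, 11.4 and 7.49 CPM in MNK-3 replicate 1. They had 0, 0.132 and 0.725 CPM in replicate 2. The E protein genes Tcf3, Tcf4 and Tcf12 had 206, 57.0 and 232 CPM in replicate 1 and 249, 57.8 and 195 in replicate 2. For MNK-3 over ILC2, 4 of 14 turned sign: other TOX genes, other regulators, and B cell and myeloid markers. The levels of Id3 in NK and Zbtb16 in ILC2 rest on 6 reads each, and 3 reads amount to 0.647 CPM in NK and 0.323 CPM in ILC2. No paired analysis was possible because only MNK-3 has more than 1 library.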
